A study of Mus musculus with 6 samples.

Results

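The genes described here are 46 mitotic spindle and kinetochore genes among the 20409 features of a count table made from mouse duodenal villi. They were chosen by symbol, as a list of factors that act in mitosis, and each symbol matched 1 Ensembl identifier in the table. All 46 passed the filter on low counts, which kept 13346 features. The filter asks for a minimum level in 3 samples, the size of 1 group, so a gene can pass through 1 group alone. In mitosis, microtubules growing from the spindle poles attach to kinetochores, the protein assemblies built on the centromere of each chromosome. A checkpoint holds the cell until every kinetochore is attached, after which a ubiquitin ligase, the anaphase-promoting complex, triggers the separation of the sister chromatids and the cell divides. In the small intestine, dividing cells normally sit in the crypts, while the villi are covered by cells that have left the cell cycle.

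The study compared villi of double mutant mice (DM villi) with villi of wild-type mice (WT villi), with 3 mice and 1 library per mouse in each group, to ask how the villus epithelium changes when Smad4 is lost and β-catenin is made stable. DM mice carried Smad4 fl/fl, 1 floxed exon 3 allele of the β-catenin gene and Villin-CreERT2, and were injected with tamoxifen at 0.05 g/kg on 4 consecutive days. Deletion of exon 3 leaves a β-catenin that escapes degradation, a gain of function (GOF). Villi were collected 7 days post-induction. WT mice were littermates that were not injected, so the alleles and the tamoxifen cannot be told apart. Which of the alleles the littermates carried is not given in the sources used here. Each group held 2 females and 1 male, the males being the mice numbered 1 (WT1 and DM1), and the ages of the mice are not given in the sources used here. The Villin promoter drives Cre in the whole intestinal epithelium, crypts included. The villi were shaken off the tissue after treatment with EDTA and held back by a filter, and the RNA of each whole preparation was sequenced after selection of polyadenylated transcripts. In such bulk RNA, a change in the number of dividing cells and a change in the RNA of each cell cannot be told apart.

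The libraries held between 19678507 and 26337318 counts, and 3 counts, the floor used here for detection, corresponded to 0.114 to 0.152 CPM, the count scaled to the library total. This floor covers counting error only. Levels are given as CPM scaled with edgeR's TMM factors unless stated otherwise. Differences are given as the log2 ratio of DM over WT villi, the fitted log2 fold change, and a value after ± beside it is its standard error. Smad4 had 120, 180 and 144 CPM in the 3 WT mice and 26.1, 36.8 and 32.1 CPM in the 3 DM mice, in the order of their numbers, as it does throughout (log2 fold change -2.22, adjusted p = 0.000145 in edgeR's quasi-likelihood test). The library of WT1 stood apart from WT2 and WT3. Over 9 goblet cell markers its summed level was 142 CPM against 15677 and 14858 CPM, and over 7 Paneth cell markers it was 24.0 CPM against 971 and 1580 CPM. The corresponding DM ranges were 4967 to 5510 CPM for goblet and 162 to 259 CPM for Paneth cell markers. WT1 was also the lowest WT mouse for 42 of the 46 mitotic genes, so the main counts are given below with and without it.

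The mitotic genes were higher in DM villi. Of the 46, 35 passed at an adjusted p under 0.05 and were higher, against 19.7% of all genes tested, and none was lower, against 17.0% of all genes tested (edgeR's quasi-likelihood test with Benjamini-Hochberg adjustment over all genes tested). At an unadjusted p under 0.05, 41 were higher and 0 lower. Of all genes tested, 24.8% were higher and 2916 of 13346 lower at this threshold. DESeq2's Wald test called 36 higher and 0 lower, against 19.9% and 19.5% of all genes tested. With limma-voom 38 were higher and 0 lower, against 20.2% and 16.9%. The median log2 fold change of the 46 genes was 1.65, and that of all genes tested was 0.02. Among the 35 genes that rose, the log2 fold change ran from 0.87 for *Plk4* to 2.78 for *Ttk*, a value that became 4.04 without WT3. For 34 of them it was over 1, against 10.9% of all genes tested, and for 9 it was over 2, against 3.04%. Every DM mouse lay above every WT mouse for 42 of the 46 genes, against 28.1% of all genes tested. For 18 genes the lowest DM mouse had over 2 times the level of the highest WT mouse, against 5.48%. With scaling by library size alone, 3732 of all genes tested were higher and 1425 lower, in place of 2632 and 2273, the median of all genes tested moved to 0.22 and that of the 46 genes to 1.83, and 40 of the 46 were called higher and 0 lower.

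Added over all 46 genes, the level was 111, 197 and 203 CPM in WT villi and 418, 459 and 370 CPM in DM villi. The groups did not overlap, and the ratio of their means was 2.44. *Smc4*, *Mki67*, *Top2a*, *Ncapd2* and *Kif4*, the 5 genes with the most WT counts, made up 44.4% of the sum in WT1, 37.1% in WT2 and 36.8% in WT3. Without these 5 the sum was 105 ± 37.2 CPM in WT and 292 ± 32.0 CPM in DM villi (SD, n = 3), a ratio of 2.79. Without WT1, 35 of the 46 genes were called higher and 0 lower, against 20.2% and 17.1% of all genes tested in the same fit, and the median log2 fold change was 1.34. Of these 35 calls, 33 were also made with all 6 mice. *Plk4* and *Spc24* were lost and *Plk1* and *Ncapg* were gained. The count rested more on DM2, since without this mouse 23 of the 46 were called higher and 0 lower, against 13.2% and 11.9% of all genes tested in that fit.

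**Figure D1:**
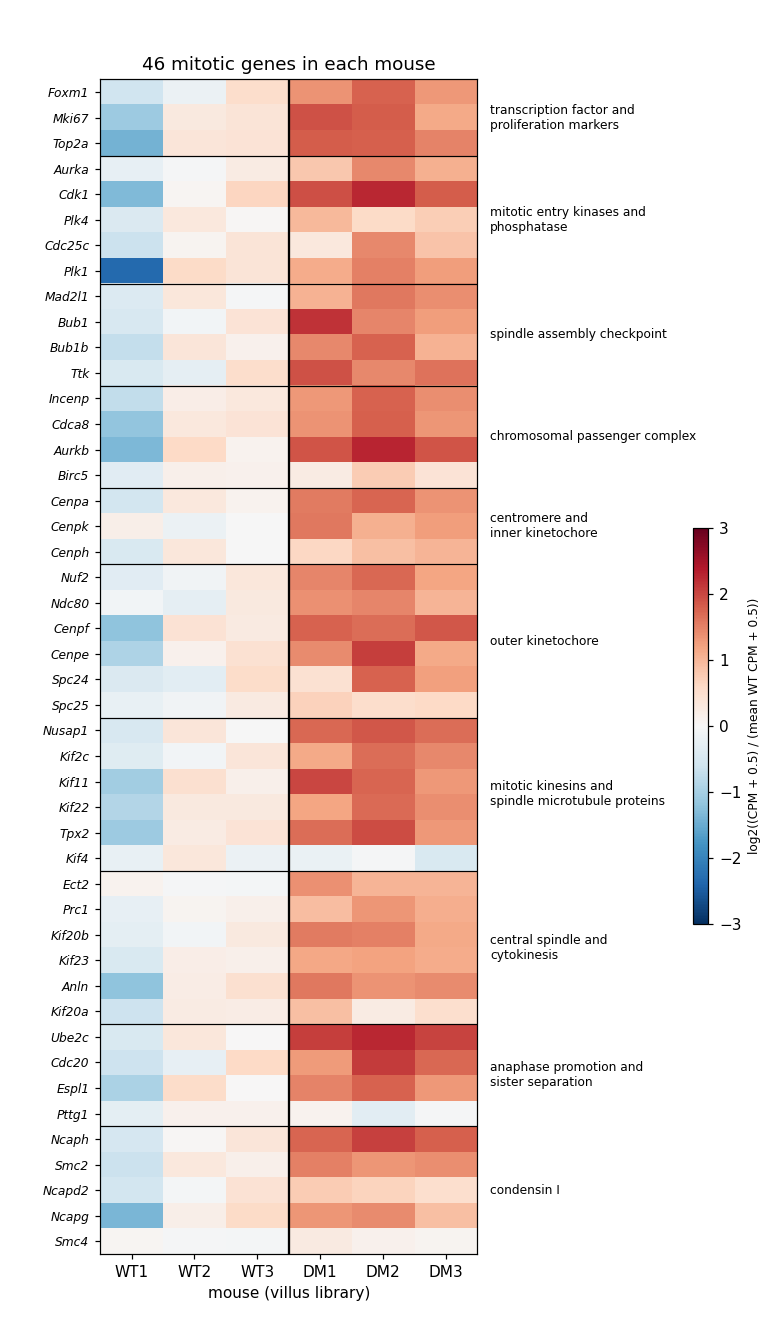
Level of each of the 46 genes (rows, grouped by role) in each of the 6 mice (columns), as the log2 ratio of CPM + 0.5 to the mean of the 3 WT mice + 0.5; red is above and blue below the WT mean. The median over the 46 genes was -0.52 in WT1, 0.19 in WT2, 0.28 in WT3, 1.36 in DM1, 1.55 in DM2 and 1.25 in DM3, and the rows of *Smc4*, *Pttg1* and *Kif4* stay pale in all 6 columns.

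**Figure D2:**
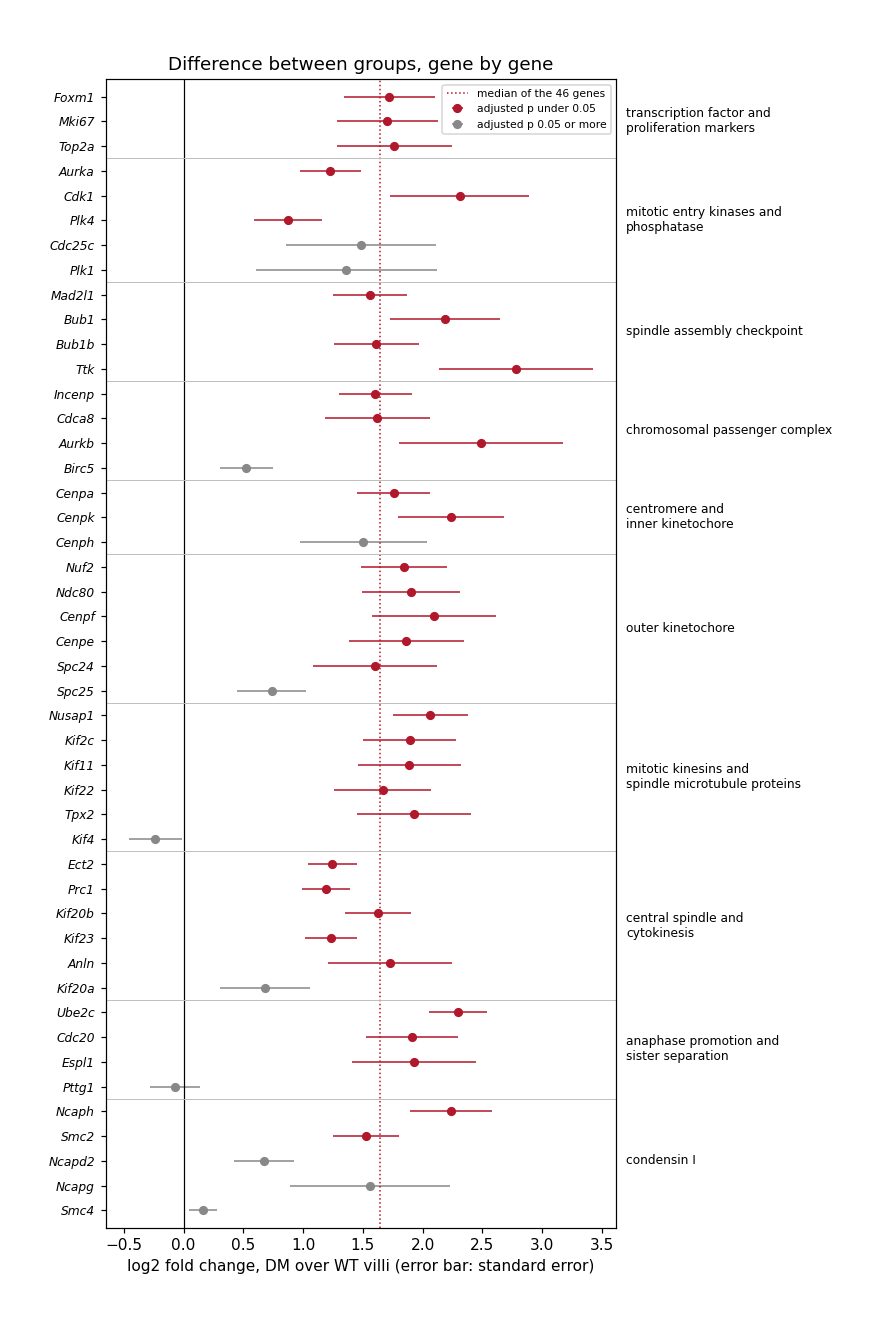
Log2 fold change of DM over WT villi for each gene (points) with its standard error (bars), from edgeR's quasi-likelihood fit on 3 mice a group, grouped by role. The 35 red genes passed at an adjusted p under 0.05, the 11 grey ones did not, and the dotted line marks the median of 1.65.

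Promoters of mitotic genes are known to carry 2 short elements, the cell cycle genes homology region (CHR), where the MuvB complex binds and which serves FOXM1 and B-MYB as well as the repressive DREAM complex, and the CCAAT box bound by NF-Y. RefSeq promoter windows of build GRCm38.p6, from 250 bases before to 50 after the annotated start, matched 38 of the 46 genes. Only the first listed window of each gene was used. For 6 of the 38, the bases after the start were not found near the opening of an mm9 transcript of the gene. Windows were searched on both strands for the letters TTTGAA (CHR), TTCGAA (a CHR variant) and CCAAT. The CHR letters were in 27 of the 38 windows (71.1%) and in 18.1% of the windows of all 27025 genes. The CCAAT box was also in 27 of the 38 (71.1%), against 37.9% of all genes, and both were in 23 (60.5%), against 7.12%. The CHR matches lay close to the start. Of 35 in the mitotic genes, 26 (74.3%) began within 50 bases of it, against 24.8% of the 5632 matches in all genes. The CHR variant was in 3 windows, against 1.57% of all genes. The 8-letter E2F sites TTTGGCGC, TTTCCCGC, TTTCGCGC and TTTGCCGC were in 3 windows (7.89% against 2.32%), and the forkhead letters TAAACA were in 4 (10.5% against 13.4%).

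The windows of 5 genes of different role groups are shown, 5′ to 3′ along the strand of the gene, with CHR, CHR variant and CCAAT letters of either strand in capitals. On the other strand the CHR reads TTCAAA and its variant TTCGAA, the CCAAT box reads ATTGG, and matches that overlap run together. They show CHR letters within 50 bases after the start and CCAAT boxes before it (*Aurka*, *Cenpa*), a CHR with 6 CCAAT boxes (*Ube2c*), a window with several of both (*Top2a*), and a gene that rose with none of these letters (*Nusap1*). The windows are Aurka chr2:172370521-172370820 (minus strand), Cenpa chr5:30666636-30666935 (plus strand), Ube2c chr2:164769679-164769978 (plus strand), Top2a chr11:99024140-99024439 (minus strand) and Nusap1 chr2:119618048-119618347 (plus strand) of GRCm38.p6.
Aurka: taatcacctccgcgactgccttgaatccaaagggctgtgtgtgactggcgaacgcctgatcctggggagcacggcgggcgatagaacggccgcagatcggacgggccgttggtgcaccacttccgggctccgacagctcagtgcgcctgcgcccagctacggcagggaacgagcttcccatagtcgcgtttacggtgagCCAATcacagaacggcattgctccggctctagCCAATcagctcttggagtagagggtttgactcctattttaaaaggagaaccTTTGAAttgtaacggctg
Cenpa: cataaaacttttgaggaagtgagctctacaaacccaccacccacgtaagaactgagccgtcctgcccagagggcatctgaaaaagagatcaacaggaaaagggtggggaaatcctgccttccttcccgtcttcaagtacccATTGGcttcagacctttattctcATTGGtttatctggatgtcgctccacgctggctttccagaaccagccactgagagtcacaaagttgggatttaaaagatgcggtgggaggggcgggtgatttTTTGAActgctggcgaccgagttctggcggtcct
Ube2c: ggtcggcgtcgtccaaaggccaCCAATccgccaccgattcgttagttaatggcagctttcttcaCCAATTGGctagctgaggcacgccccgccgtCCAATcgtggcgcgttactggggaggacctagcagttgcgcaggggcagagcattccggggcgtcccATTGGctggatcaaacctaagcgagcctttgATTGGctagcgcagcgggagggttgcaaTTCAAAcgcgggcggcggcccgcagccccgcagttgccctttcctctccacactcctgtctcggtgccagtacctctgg
Top2a: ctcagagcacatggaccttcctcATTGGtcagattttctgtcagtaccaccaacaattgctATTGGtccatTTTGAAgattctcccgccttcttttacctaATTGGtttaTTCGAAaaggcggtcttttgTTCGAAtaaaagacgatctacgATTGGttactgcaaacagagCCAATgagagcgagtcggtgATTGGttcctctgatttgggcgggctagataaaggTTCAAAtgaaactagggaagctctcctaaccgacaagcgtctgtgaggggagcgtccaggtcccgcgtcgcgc
Nusap1: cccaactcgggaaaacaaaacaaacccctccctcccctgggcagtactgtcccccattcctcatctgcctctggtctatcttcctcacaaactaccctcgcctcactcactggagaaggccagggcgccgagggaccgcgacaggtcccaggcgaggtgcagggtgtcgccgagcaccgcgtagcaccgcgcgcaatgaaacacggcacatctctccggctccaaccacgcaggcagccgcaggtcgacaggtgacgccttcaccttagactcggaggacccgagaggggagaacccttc

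Within the 38 genes, calls were made with and without the CHR letters. With them, 22 genes were called higher and 5 were not, and without them 8 were higher and 3 were not. The median log2 fold change was 1.67 with and 1.85 without these letters. In the windows used, *Pttg1*, *Birc5*, *Mad2l1*, *Plk4*, *Nusap1* and *Ncaph* had none of the letters searched, and *Nuf2* had the forkhead letters alone. Other starts and bases outside the windows were not searched, so these genes may still carry the elements. No window was matched for *Foxm1*, *Spc24*, *Aurkb*, *Incenp*, *Tpx2*, *Smc4*, *Cdc25c* and *Kif20a*.

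**Figure D3:**
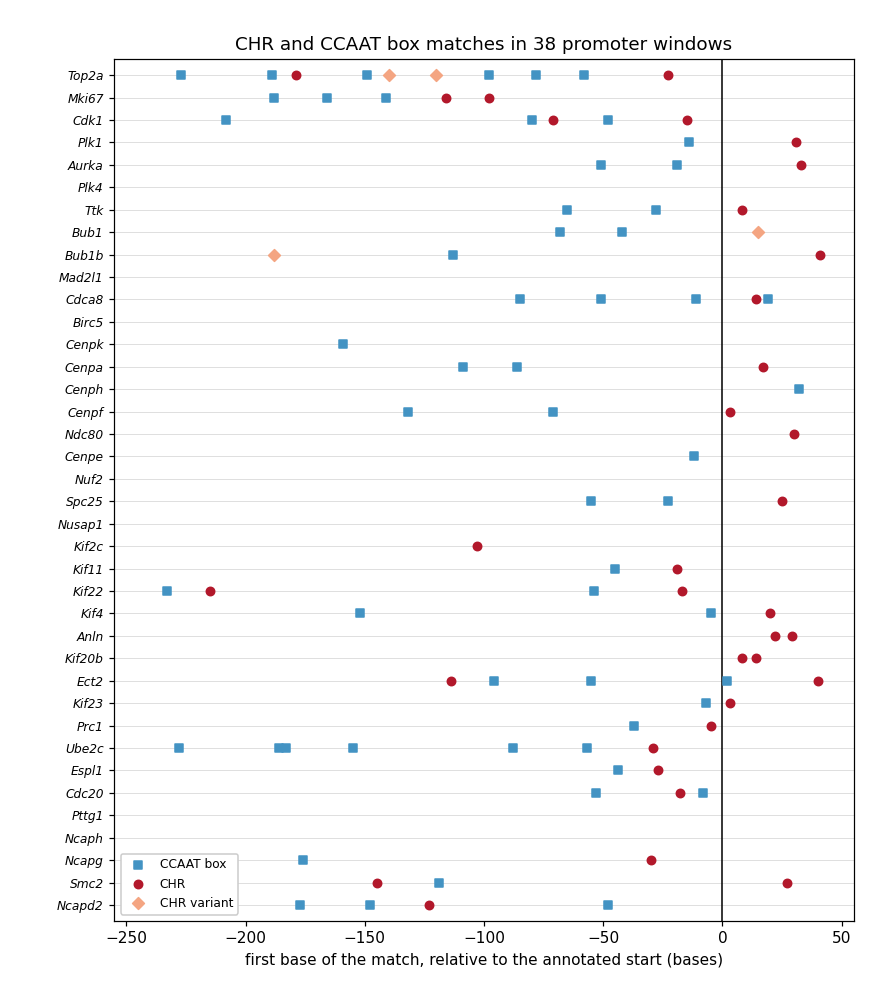
Position of CHR (circles), CHR variant (diamonds) and CCAAT box (squares) matches in the 38 promoter windows, as the distance of the first base of the match from the annotated start (vertical line), with 1 row per gene ordered by role. Most circles gather near the start, 26 of 35 within 50 bases of it.

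The transcription factor and the proliferation markers all rose. *Foxm1* (ENSMUSG00000001517; mm9 chromosome 6, 128312985 to 128325911) encodes a forkhead factor that activates many genes of the G2 and M phases. It had 1.08, 1.63 and 2.98 CPM in WT and 5.63, 7.699 and 5.41 CPM in DM villi, and the lowest DM mouse lay above the highest WT mouse (log2 ratio 1.72 ± 0.377, edgeR's adjusted p = 0.00826). *Mki67* (ENSMUSG00000031004; chromosome 7, 142881471 to 142908062) encodes Ki-67, a protein that coats mitotic chromosomes and a common marker of cycling cells. Its level was 5.12, 14.3 and 15.3 CPM in WT and 44.6, 42.1 and 26.01 CPM in DM villi (log2 ratio 1.71 ± 0.425, edgeR's adjusted p = 0.0208). *Top2a* (ENSMUSG00000020914; chromosome 11, 98854257 to 98885503) encodes the topoisomerase that untangles replicated DNA, and had 3.58, 13.5 and 14.1 CPM in WT and 37.8, 37.3 and 30.3 CPM in DM villi (log2 ratio 1.76 ± 0.481, edgeR's adjusted p = 0.0307). For both markers WT1 was low and the groups did not overlap. Without DM2 both calls were lost (adjusted p = 0.0751 for *Mki67* and 0.101 for *Top2a*, edgeR), and that of *Top2a* was also lost without WT2, DM1 or DM3. That of *Mki67* was also lost without DM1. Both were also lost with the replicate number as a block (adjusted p = 0.058 and 0.0505) and when every gene with at least 1 count was kept (0.0689 and 0.0972, edgeR).

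Of the 5 genes for entry into mitosis, 3 rose. *Aurka* (ENSMUSG00000027496; chromosome 2, 172181690 to 172196035), for Aurora kinase A of the centrosomes and spindle poles, had 2.87, 3.43 and 4.296 CPM in WT and 6.53, 10.4 and 7.88 CPM in DM villi, without overlap (log2 ratio 1.23 ± 0.256, edgeR's adjusted p = 0.00654). *Cdk1*, the kinase that drives entry into mitosis, rose further, by 2.31 on the log2 scale (standard error 0.581, adjusted p = 0.0181, edgeR), and was lost as a call without WT2 or DM2. Without WT3 its log2 ratio was 2.98. *Plk4*, the kinase that starts centriole duplication, rose least of the 35, by 0.87 (adjusted p = 0.0408, edgeR), and was called in only 1 of 6 fits with 1 mouse removed and not with a replicate block (adjusted p = 0.0883). *Plk1* (ENSMUSG00000030867; chromosome 7, 129302951 to 129313389), the Polo-like kinase that acts from mitotic entry to cytokinesis, had 1.25, 12.7 and 11.02 CPM in WT and 18.6, 24.5 and 20.5 CPM in DM villi. All DM mice were above all WT mice, but WT1 lay far under WT2 and WT3, and the difference did not pass (log2 ratio 1.36 ± 0.759, edgeR's adjusted p = 0.22). Without WT1 it passed, with a log2 fold change of 0.84 and an adjusted p of 0.0047. *Cdc25c*, for a phosphatase that activates Cdk1, had 0.167, 0.598 and 0.859 CPM in WT and 0.798, 2.32 and 1.38 CPM in DM villi, and the groups overlapped (log2 ratio 1.48, edgeR's adjusted p = 0.096).

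The 4 genes of the spindle assembly checkpoint all rose, and none of these calls was lost in the 6 fits with 1 mouse removed. *Mad2l1* (ENSMUSG00000029910; chromosome 6, 66485384 to 66491027), for the Mad2 protein that unattached kinetochores turn into an inhibitor of Cdc20, had 1.46, 2.77 and 2.02 CPM in WT and 4.79, 7.28 and 6.31 CPM in DM villi (log2 ratio 1.56 ± 0.307, edgeR's adjusted p = 0.00513). *Ttk* (ENSMUSG00000038379; chromosome 9, 83728296 to 83765997), for the Mps1 kinase that starts checkpoint signalling, had 0.0833, 0.163 and 0.657 CPM in WT and 2.53, 1.67 and 1.99 CPM in DM villi. These WT values rest on 2, 3 and 13 counts, of which the first is under and the second at the floor of 3. *Ttk* thus passed the filter on low counts only with the DM mice. Its log2 fold change of 2.78 had a standard error of 0.644 (adjusted p = 0.0105, edgeR). With 1 mouse removed this value ran from 2.30 without WT1 to 4.04 without WT3. *Bub1*, a kinase at the kinetochore, rose by 2.19 on the log2 scale (adjusted p = 0.00677), and *Bub1b*, for the BubR1 subunit of the checkpoint complex, by 1.61 (adjusted p = 0.00829, both edgeR). In all 4 genes the 3 DM mice lay above the 3 WT mice.

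The chromosomal passenger complex corrects wrong attachments and moves to the spindle midzone in anaphase, and 3 of its 4 subunits rose. *Incenp* (ENSMUSG00000024660; chromosome 19, 9946787 to 9974023), the scaffold, had 2.67, 5.55 and 6.01 CPM in WT and 12.5, 17.3 and 13.3 CPM in DM villi (log2 ratio 1.61 ± 0.304, edgeR's adjusted p = 0.00445). *Aurkb*, the kinase of the complex, had 0.125, 1.904 and 1.21 CPM in WT and 5.305, 7.19 and 5.36 CPM in DM villi, the value of WT1 resting on 3 counts. Its log2 ratio was 2.49 ± 0.683 (edgeR's adjusted p = 0.025), 1.93 without WT1 and 3.19 without WT2, and the call was lost without WT3, DM1, DM2 or DM3 and when every gene with at least 1 count was kept (adjusted p = 0.0544). *Cdca8*, for borealin, rose by 1.62 (adjusted p = 0.0233, edgeR), a call lost without DM1 or DM2. *Birc5* (ENSMUSG00000017716; chromosome 11, 117710565 to 117717069), for survivin, had 5.96, 8.704 and 8.49 CPM in WT and 9.29, 13.5 and 10.49 CPM in DM villi. Its highest WT and lowest DM values lay close together without overlapping (log2 ratio 0.53 ± 0.22, edgeR's adjusted p = 0.0931). Per exon length, *Birc5* was the first of the 4 subunits in WT villi at 4.81 TPM (counts divided by exon length and scaled to 1 common total) and *Incenp* first in DM villi at 9.68 TPM.

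At the centromere and inner kinetochore, *Cenpa* (ENSMUSG00000029177; chromosome 5, 30969150 to 30977200), the histone H3 variant that marks centromeres, had 1.37, 2.88 and 2.43 CPM in WT and 7.51, 8.58 and 6.41 CPM in DM villi (log2 ratio 1.76 ± 0.303, edgeR's adjusted p = 0.00284). *Cenpk* and *Cenph* encode subunits of the network that links centromeric chromatin to the outer kinetochore, and both had few counts. *Cenpk* rose by 2.24 on the log2 scale (adjusted p = 0.00544, edgeR), from 10, 4 and 6 counts in WT to 41, 26 and 30 counts in DM villi, and is 1 of 4 genes for which WT1 was not the lowest WT mouse. *Cenph* (ENSMUSG00000045273; chromosome 13, 101529629 to 101545854) had 0.167, 0.653 and 0.404 CPM in WT and 0.892, 1.21 and 1.33 CPM in DM villi. Its groups did not overlap, but with 4 to 28 counts in a mouse the adjusted p was 0.0549 (log2 ratio 1.51 ± 0.533, edgeR).

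In the outer kinetochore, 5 of 6 genes rose. *Ndc80*, *Nuf2*, *Spc24* and *Spc25* encode the 4 subunits of the Ndc80 complex, the rod that holds microtubules. *Nuf2* (ENSMUSG00000026683; chromosome 1, 171428065 to 171461595) had 0.75, 0.979 and 1.52 CPM in WT and 3.85, 4.73 and 3.09 CPM in DM villi (log2 ratio 1.85 ± 0.358, edgeR's adjusted p = 0.00481). Of the 46 genes, *Nuf2* alone had a near-identical copy elsewhere in mm9, 291 matching bases on chromosome X, at a minimum of 200 bases and 95% identity. *Ndc80* rose by 1.90 (adjusted p = 0.0079, edgeR). *Spc24* had 0.666, 0.762 and 1.82 CPM in WT and 1.69, 4.92 and 3.23 CPM in DM villi, so that DM1 fell under WT3 (log2 ratio 1.60, edgeR's adjusted p = 0.0407), and the call was lost without WT1, WT2, DM2 or DM3 and with limma-voom (adjusted p = 0.0539), which called 4 of the 6 genes. Without WT3 its log2 ratio was 2.19. *Spc25* (ENSMUSG00000005233; chromosome 2, 69031952 to 69044251) had 1.58, 1.74 and 2.43 CPM in WT and 3.43, 2.97 and 3.18 CPM in DM villi, with no overlap and a smaller difference that did not pass (log2 ratio 0.74 ± 0.29, edgeR's adjusted p = 0.0781). *Cenpe*, a kinesin that carries chromosomes to the spindle equator, rose by 1.87 (adjusted p = 0.0167, lost without DM2), and *Cenpf*, for a large protein of the outer kinetochore, by 2.10 (adjusted p = 0.0153, both edgeR).

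Among the mitotic kinesins and spindle microtubule proteins, 5 of 6 genes rose. *Nusap1* (ENSMUSG00000027306; chromosome 2, 119444034 to 119476980), whose protein bundles spindle microtubules near chromosomes, had 0.958, 2.12 and 1.52 CPM in WT and 6.24, 6.86 and 6.03 CPM in DM villi, every DM mouse at over 2 times the highest WT mouse (log2 ratio 2.07 ± 0.315, edgeR's adjusted p = 0.00165). *Kif11*, the motor that pushes the spindle poles apart, rose by 1.89, *Kif2c*, a microtubule depolymerase, by 1.89, *Kif22*, a kinesin on chromosome arms, by 1.67, and *Tpx2*, an activator of Aurora kinase A, by 1.93. Their adjusted p in edgeR's test ran from 0.00625 for *Kif2c* to 0.0145 for *Tpx2*, and those of *Kif22* and *Tpx2* were lost without DM2. *Kif4* (ENSMUSG00000034311; chromosome X, 97821076 to 97922553), another kinesin of chromosome arms and the midzone, did not follow them. It had 7.498, 11.2 and 7.63 CPM in WT and 7.51, 8.49 and 6.27 CPM in DM villi, overlapping values with a log2 ratio of -0.24 ± 0.221 (edgeR's adjusted p = 0.433). *Kif4* shares 832 exon bases, 15.1% of its own, with *Pdzd11* on the opposite strand, which had 46.4, 31.7 and 39.2 CPM in WT and 33.6, 37.1 and 32.6 CPM in DM villi. The strand setting of the counting is not given in the sources used here, so reads of these bases cannot be assigned, and their part in the level of *Kif4* was not tested.

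In the central spindle and cytokinesis group, 5 of 6 genes rose, and the median log2 fold change over the 6 was 1.24. *Ect2* (ENSMUSG00000027699; chromosome 3, 26996144 to 27052800), which activates RhoA at the division plane, had 3.999, 3.59 and 3.54 CPM in WT and 10.4, 8.07 and 7.97 CPM in DM villi, with WT1 the highest WT mouse (log2 ratio 1.24 ± 0.203, edgeR's adjusted p = 0.0022). *Prc1*, which crosslinks the midzone microtubules, rose by 1.19, *Kif23*, the kinesin of centralspindlin, by 1.23, *Kif20b*, a kinesin needed late in cytokinesis, by 1.62, and *Anln*, for the contractile ring scaffold anillin, by 1.73. The first 3 had adjusted p of 0.00251, 0.00313 and 0.00274 and were called in each of the 6 fits with 1 mouse removed, whereas *Anln* (adjusted p = 0.0321, all edgeR) was called in 2 of them. *Kif20a* (ENSMUSG00000003779), the kinesin that brings the passenger complex to the midzone, had 1.17, 2.502 and 2.48 CPM in WT and 4.22, 2.505 and 3.09 CPM in DM villi. Its groups touched without overlapping, at 2.502 CPM in WT2 and 2.505 CPM in DM2 (log2 ratio 0.68 ± 0.377, edgeR's adjusted p = 0.19). *Kif20a* shares 1259 exon bases, 32.3% of its own, with *Cdc23* on the opposite strand, which had 8.80 ± 1.01 CPM in WT and 11.5 ± 0.713 CPM in DM villi (SD, n = 3; adjusted p = 0.0927, edgeR).

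For anaphase, the smallest adjusted p of all 46 genes belonged to *Ube2c* (ENSMUSG00000001403; chromosome 2, 164595398 to 164604322), the ubiquitin-conjugating enzyme that works with the anaphase-promoting complex. It had 2.12, 4.03 and 3.08 CPM in WT and 14.6, 16.6 and 14.00 CPM in DM villi, and its log2 fold change of 2.30 had a standard error of 0.245 (adjusted p = 0.000359, edgeR). Of its exon bases, 592 (22.8%) are shared with *Tnnc2* on the opposite strand, which has no row of its own in the count table. Among the other genes that rose, *Cdc20* shares 53 exon bases (2.84%) with *Elovl1*, *Cdca8* 232 (4.48%) with 9930104L06Rik and *Nusap1* 172 (4.24%) with *Oip5*, each on the opposite strand. On the same strand, *Foxm1* shares 144 (2.62%) with 4933413G19Rik and *Top2a* 122 (1.35%) with SNORA32, neither of which has a row in the count table. *Elovl1*, at 144 ± 7.99 CPM in WT and 108 ± 11.3 CPM in DM villi (SD, n = 3), was lower (edgeR's adjusted p = 0.0207), 9930104L06Rik was higher and *Oip5* was not called. The part of shared reads in these levels was not tested. *Cdc20*, the activator of the complex and the target of the checkpoint, rose by 1.91 (adjusted p = 0.00619, edgeR), and *Espl1*, for the protease separase that opens the cohesin ring, by 1.93 (adjusted p = 0.0199, edgeR), a call that held in 3 of 6 fits with 1 mouse removed, with a log2 ratio of 2.53 without WT2. *Pttg1* (ENSMUSG00000020415; chromosome 11, 43233752 to 43239753), for securin, the inhibitor of separase, had 6.62, 9.03 and 9.098 CPM in WT and 8.92, 6.54 and 8.07 CPM in DM villi. The values of the 2 groups were interleaved (log2 ratio -0.07 ± 0.207, edgeR's adjusted p = 0.814), and the sign of this difference changed in 3 of the 15 other fits, that with scaling by library size alone among them.

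Of the 5 genes of condensin I, the ring that compacts mitotic chromosomes, edgeR called 2 higher, DESeq2 3 and limma-voom 4. *Ncaph* (ENSMUSG00000034906; chromosome 2, 126929545 to 126959690), the subunit that closes the ring, had 0.75, 1.31 and 1.77 CPM in WT and 5.45, 6.91 and 5.601 CPM in DM villi (log2 ratio 2.24 ± 0.341, edgeR's adjusted p = 0.00165). *Smc2*, one of the ATPase arms, rose by 1.53 (adjusted p = 0.00347, edgeR). *Smc4* (ENSMUSG00000034349; chromosome 3, 68808660 to 68838545), the other arm and the most abundant of the 46 genes in WT villi, had 26.95, 25.2 and 24.8 CPM in WT and 31.2, 28.01 and 27.1 CPM in DM villi. The groups were just separate, and the log2 ratio of 0.16 ± 0.117 (edgeR's adjusted p = 0.305) did not pass. Both arms also belong to condensin II. *Ncapg* had 0.167, 1.47 and 2.07 CPM in WT and 3.85, 4.17 and 2.75 CPM in DM villi, with 4 counts in WT1 (log2 fold change 1.56, adjusted p = 0.104, edgeR). Its log2 ratio was 1.016 without WT1 (adjusted p = 0.0329) and 2.17 without WT3 (0.0671), and 2.20 with limma-voom (0.046). *Ncapg* shares 942 exon bases, 13.3% of its own, with *Lcorl* on the opposite strand, at 45.4 ± 5.50 CPM in WT and 40.8 ± 8.79 CPM in DM villi (SD, n = 3). *Ncapd2* had 6.29, 8.92 and 12.9 CPM in WT and 16.1, 15.1 and 13.5 CPM in DM villi, with WT3 close to DM3 (log2 ratio 0.67, edgeR's adjusted p = 0.0647).

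Levels of different genes can be set side by side only per length, here as TPM over the exons of the mm9 annotation. In WT villi the mean level of the 46 genes ran from 0.229 TPM for *Ttk* to 10.9 TPM for *Smc4*, a ratio of 47.4, with a median of 1.28 TPM. In DM villi it ran from 1.104 TPM for *Ncapg* to 20.96 TPM for *Plk1*, a ratio of 19.0, with a median of 3.76 TPM. The 6 highest genes in WT villi were *Smc4*, *Pttg1* at 8.78 TPM, *Plk1* at 7.97, *Birc5* at 4.81, *Ncapd2* at 4.45 and *Kif4* at 3.35 TPM. The neighbours in this order were not all separate, since *Plk1* alone ranged from 1.22 to 11.4 TPM over the 3 WT mice. With edgeR on all 6 mice, none of these 6 was called and 35 of the other 40 were. The cut at 6 was not planned and falls where the calls begin, as the next gene, *Cdc20* at 3.31 TPM, was called. It thus fixes this contrast, and no conclusion is drawn from it. Of the 6, DESeq2 called *Ncapd2* (adjusted p = 0.0491) and limma-voom called *Ncapd2* and *Plk1* (adjusted p = 0.0439 and 0.0473). The median log2 fold change was 0.35 for the 6 and 1.72 for the 40, a contrast that rests on the same cut. In DM villi *Plk1* was followed by *Ube2c* at 12.6 TPM, *Smc4* at 12.4 and *Cdc20* at 12.4 TPM, and these 3 lay within the spread of *Cdc20*, 8.85 to 15.7 TPM. Across the 46 genes, the WT level and the log2 fold change had a Spearman correlation of -0.59. This is a description only, since the WT values enter both quantities.

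**Figure D4:**
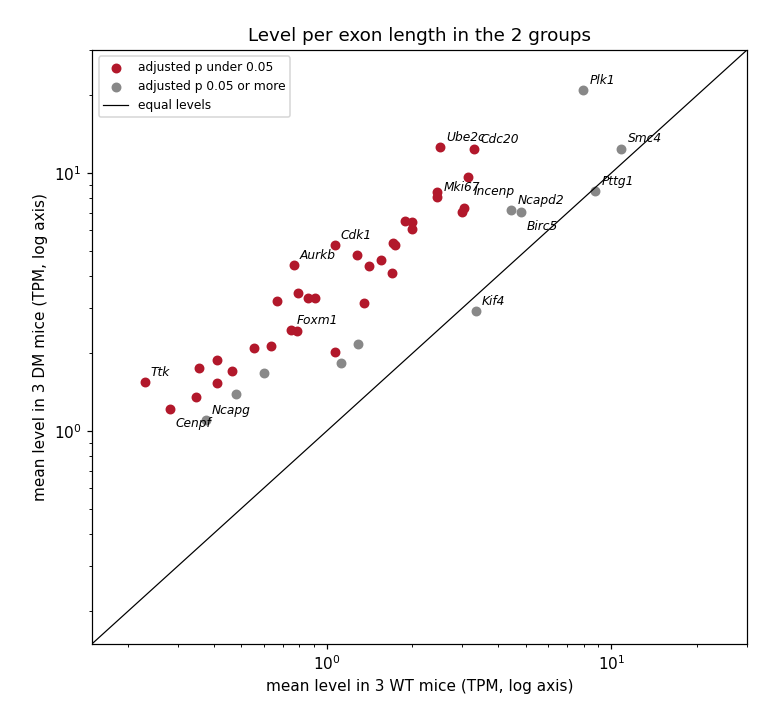
Mean level per exon length of each of the 46 genes in the 3 WT mice (x axis) and the 3 DM mice (y axis), in TPM on log axes; the line marks equal levels, and red points passed edgeR's test at an adjusted p under 0.05. *Smc4*, *Pttg1* and *Kif4* lie on or near the line, while genes with low WT levels such as *Ttk*, *Cdk1* and *Aurkb* lie far above it.

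The 11 genes that did not pass edgeR's test on all 6 mice were of different kinds. *Plk1*, *Ncapg*, *Cenph* and *Cdc25c* had log2 fold changes of 1.36 to 1.56 with standard errors of 0.53 to 0.76, and WT1 was the lowest mouse for each. *Spc25*, *Kif20a*, *Ncapd2* and *Birc5* had log2 fold changes of 0.53 to 0.74. *Smc4*, *Pttg1* and *Kif4* had values from -0.24 to 0.16, with standard errors of 0.12 to 0.22.

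The spread among the WT mice rested on WT1. The highest WT mouse had over 2 times the level of the lowest for 32 of the 46 genes, with a median ratio of 2.31, but between WT2 and WT3 alone this held for 3 genes, *Ttk*, *Ndc80* and *Spc24*, with a median ratio of 1.32. The highest DM mouse had over 2 times the level of the lowest for 4 genes, with a median ratio of 1.41. In 19 genes WT1 had at most 1/2 of the lower of WT2 and WT3. WT1 was also the lowest WT mouse in the summed level of 8 crypt stem cell markers, at 87.6 CPM against 191 and 202 CPM, with 325 to 418 CPM in DM villi. Of these markers, 4 were called higher, and 6 without WT1, and *Lgr5*, the receptor that marks crypt stem cells, had 0.167, 0.925 and 0.809 CPM in WT and 3.47, 2.32 and 2.75 CPM in DM villi. The part of the crypt content of a preparation in the levels of the mitotic genes was not tested. When 1 mouse was left out at a time, the number of mitotic genes called higher was 35 without WT1, 32 without WT2, 33 without WT3, 28 without DM1, 23 without DM2 and 30 without DM3, and none was called lower. The share of all genes tested that was called higher in these fits was, in the same order, 20.2%, 14.7%, 15.4%, 15.9%, 13.2% and 14.2%. Of the 35 calls, 23 held in all 6 of these fits.

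Markers of other cell types moved in different ways. Of 10 enterocyte markers, 7 were called lower and 1 higher by edgeR, and their sum was 48868 to 57427 CPM in WT and 29495 to 33239 CPM in DM villi. Lymphocyte markers, from cells that can also divide, summed to 94.9 to 195 CPM in WT and 84.4 to 125 CPM in DM villi. Of 8 tested, edgeR and limma-voom each called 2 lower and DESeq2 called 6. Without WT1, edgeR called 7 lower. The B cell marker *Cd79a* was at 0 in all WT mice. None of 9 goblet cell markers was called in either direction by edgeR, DESeq2 or limma-voom, or had an unadjusted p under 0.05 (0 genes), but without WT1 edgeR called 7 lower. Of 7 Paneth cell markers, 1 was called lower by edgeR, and 3 lower and 1 higher without WT1. Myeloid markers summed to 6.66 to 12.6 CPM in WT and 9.25 to 12.3 CPM in DM villi, and stromal and endothelial markers to 1.75 to 3.16 CPM in WT and 3.75 to 7.46 CPM in DM villi. Of the latter, *Col1a2*, *Col3a1* and *Pdgfra* were at 0 in all WT mice. DM1 stood apart in the muscle markers *Acta2* and *Des*, with 40 and 35 counts against 0 to 8 and 0 to 2 in the other mice, and *Vim*, at 2.17 ± 0.668 CPM in WT and 3.22 ± 0.489 CPM in DM villi (SD, n = 3), was not called (edgeR's adjusted p = 0.2). The 2 erythroid markers measured summed to at most 0.751 CPM in any mouse. The part of these cell types in the levels of the mitotic genes was not tested.

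Other genes of the same machinery were counted in lists that hold none of the 46. Of 36 tested genes of the kinetochore and checkpoint, 18 rose and 0 fell in edgeR's test, with 1 lower at an unadjusted p under 0.05 and 1 lower by DESeq2 and by limma-voom. *Ska1*, a subunit of the complex that keeps kinetochores on moving microtubule ends, had 0.0712 ± 0.0835 CPM in WT and 1.09 ± 0.583 CPM in DM villi (SD, n = 3; log2 ratio 3.94, edgeR's adjusted p = 0.00891), with WT values near or under the floor of 3 counts. *Cenpi*, of the inner kinetochore, went from 0.256 ± 0.154 to 1.63 ± 0.759 CPM (SD, n = 3; log2 ratio 2.69, edgeR's adjusted p = 0.0107). *Ska1* and *Cenpi*, with at most 7 counts in a WT mouse, passed the filter on low counts through DM villi alone. Of 46 tested genes of the spindle, centrosome and cytokinesis, 22 rose and 2 fell. *Shcbp1*, with 0, 9 and 16 counts in WT villi, rose by 2.57 on the log2 scale (standard error 0.835, adjusted p = 0.0432, edgeR). *Ckap2l*, a spindle protein, rose by 2.53 (adjusted p = 0.00128, edgeR). *Numa1*, which gathers microtubules at the spindle poles and is also present in the nuclei of cells that do not divide, fell from 163 to 94.4 CPM (log2 ratio -0.79, edgeR's adjusted p = 0.00211), and *Cenpj*, for a centriole protein, had a log2 ratio of -0.81 (edgeR's adjusted p = 0.0047). Against 19.7% of all genes tested that were higher, these lists stood at 50% and 47.8%.

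Among 16 cyclins and regulators of mitotic entry, 7 rose (43.8%) and 1 fell. *Ccnf* rose by 2.45 and *Ccnb1*, for the cyclin B1 partner of Cdk1, by 2.38 on the log2 scale (adjusted p = 0.00523 and 0.00434, edgeR), while *Wee1*, for a kinase that holds Cdk1 inactive, changed by -1.01 (adjusted p = 0.0311, edgeR). Of 16 genes for the subunits and regulators of the anaphase-promoting complex, 2 rose (12.5%) and 2 fell (12.5%), both under the shares of all genes tested, 19.7% higher and 17.0% lower. Those that rose were *Fbxo5*, for the inhibitor Emi1 (log2 fold change 1.52, adjusted p = 0.0188), and *Anapc7* (0.48, adjusted p = 0.02), and those that fell were *Anapc2* (-0.45, adjusted p = 0.00779) and *Fzr1*, for the coactivator Cdh1 (-0.33, adjusted p = 0.0324, all edgeR). Of 15 genes of cohesin and condensin II, 4 rose (26.7%) and 0 fell, by DESeq2 and limma-voom also 0, with 1 lower at an unadjusted p under 0.05. *Esco2*, an acetyltransferase of cohesin, rose by 2.53 and *Ncapg2*, of condensin II, by 1.54 (adjusted p = 0.00545 and 0.00842, edgeR). Of 22 genes of the MuvB, DREAM and E2F regulators, 9 rose (40.9%) and 2 fell. *E2f7* rose by 2.30 and *E2f1* by 1.32 (adjusted p = 0.00523 and 0.0365), and the pocket protein genes *Rb1* and *Rbl2* had log2 fold changes of -0.81 and -0.51 (adjusted p = 0.00625 and 0.0372, all edgeR).

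DNA replication genes, which act in S phase, were counted for comparison. Of 40, 26 rose (65.0%) and 1 fell. *Mcm3*, of the replicative helicase, rose from 1.68 ± 1.17 to 12.2 ± 2.07 CPM (SD, n = 3; log2 ratio 2.88, edgeR's adjusted p = 0.00833) and *Rrm2*, of ribonucleotide reductase, from 1.39 ± 0.775 to 8.86 ± 1.18 CPM (SD, n = 3; log2 ratio 2.69, edgeR's adjusted p = 0.0022). The share called was 76.1% for the 46 mitotic genes, and the difference between these shares was not tested.

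**Figure D5:**
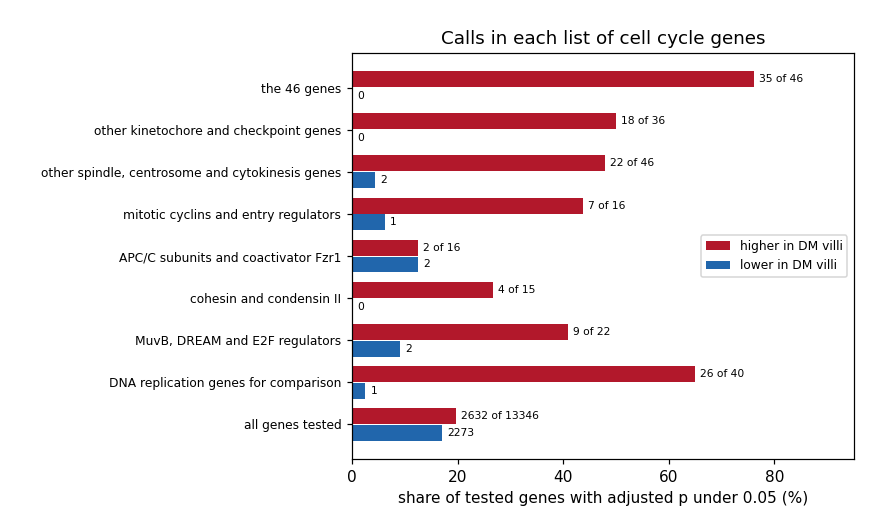
Share of the tested genes of each list (bars from 0, in percent) that passed edgeR's test at an adjusted p under 0.05, higher (red) or lower (blue) in DM villi, with the counts beside the bars. The 46 genes stand at 35 higher and 0 lower, and the subunits and regulators of the anaphase-promoting complex at 2 and 2 of 16.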

How the data were processed

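RNA of duodenal villus preparations from 3 DM and 3 WT mice was sequenced as paired reads of 150 bp, from samples with an RNA integrity number over 4. The values deposited by the authors are raw counts of reads per gene, unscaled, in a separate column for each mouse; they were obtained with HISAT2 on mm9 and featureCounts. The strand setting is not given in the sources used here.

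Symbols, coordinates and exon lengths came from the GENCODE annotation of mm9, in which 20032 of 20073 Ensembl identifiers were found, and promoter windows came from RefSeq (GRCm38.p6). Counts were filtered with filterByExpr, scaled by TMM and tested with edgeR 4.0.16 in R 4.3.3 (robust quasi-likelihood fit, no covariate, all 6 mice), with Benjamini-Hochberg adjustment over all 13346 genes tested and a threshold of 0.05. The size of the log2 ratio over √F served as its standard error. TPM were computed from the counts and exon lengths. The fit was tested on simulated data.

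The 46 genes and the other lists were chosen with earlier results of these data known. Every gene of the 46 is named, with values per mouse for *Foxm1*, *Mki67*, *Top2a* and, in each role group, the genes with the smallest and the largest adjusted p. *Cdc25c*, *Aurkb*, *Spc24*, *Ncapg*, *Ncapd2* and the count values of *Cenpk* were added after their values were seen. The goblet cell marker *Clca1* was looked up under its mm9 symbol, *Clca3*, a change made after the values were seen. In the other pathway lists, the 2 called genes with the largest log2 fold change and those called lower are named, except 1 replication gene that is not reported here. Alternatives were DESeq2 1.42.0, limma-voom 3.58.1, RLE factors, library size alone, 2 other count filters, a fit that was not robust, a replicate block, sex as a term, 2 fold thresholds, and each mouse left out.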

Additional observations from a re-analysis of the deposited data

How the results depend on the processing

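The count of mitotic genes called higher stayed within 32 to 40 with DESeq2, limma-voom, RLE factors, library size alone, 2 other count filters, a fit that was not robust, sex as a term and the replicate block, and 0 were called lower in each. The share of all genes tested called higher in these fits ran from 12.7% with every counted gene kept to 28.0% with library size alone. The filter of at least 1 CPM in 3 samples left 44 of the 46 genes, without *Cdc25c* and *Cenph*, and called 35. With a mouse left out the count of mitotic genes called higher ran from 23 to 35, the lowest value coming without DM2. With log2 fold changes over 2 it was 9. Of the 35 calls, 30 held in all 9 of these other settings. *Mki67*, *Top2a* and *Aurkb* were lost with every counted gene kept, *Mki67*, *Top2a* and *Plk4* with the replicate block, and *Spc24* with limma-voom. In the other pathway lists together, 88 genes were higher and 8 lower. Those lower were 4 with library size alone, 1 with log2 fold changes over 1 and 0 over 2, and 5 to 9 with a mouse left out. Those higher were 55 to 88 with a mouse left out and 28 over a log2 fold change of 2. Over all genes, 1425 were lower with library size alone, 1454 were higher and 832 lower with log2 fold changes over 1, and 406 and 302 over 2. *Pttg1* changed sign to 0.12 with library size alone, and lay between -0.21 and 0.0415 with a mouse left out. The median log2 fold change of the 46 genes ran from 1.34 to 1.95 with a mouse left out. The cause of these shifts was not tested.

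The deviations of equally numbered mice from their group means correlated at 0.02, -0.11 and 0.01. With 3 mice a group this cannot exclude a pairing, and equally numbered mice were of the same sex. With a replicate block, 32 of the mitotic genes were higher and 0 lower, and 2084 and 1750 of all genes. Counts of a few reads in WT mice limit *Ttk*, *Aurkb*, *Cenph*, *Cenpk* and *Ncapg*, and *Ska1*, *Cenpi* and *Shcbp1* among the other genes. Of these, *Cenpk*, *Ska1* and *Cenpi* passed the filter on low counts through DM villi alone. With 3 mice a group, a p that misses the threshold does not show that a gene is at the same level in both groups.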
